A study of Homo sapiens with 44 samples.

Results

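Semaphorins, their neuropilin and plexin receptors, and the ephrins with their Eph receptors were examined as 1 group of guidance genes across the cytokine responses of the colon fibroblast line Ccd-18Co. Members were taken by gene symbol: SEMA followed by a digit and a letter, PLXN followed by a letter and a digit, EFNA or EFNB, EPHA or EPHB, and NRP1 and NRP2. This gave 52 of the 40663 symbols listed, comprising 20 semaphorins, 2 neuropilins, 9 plexins, 14 Eph receptors and 7 ephrins. The rule uses the symbols alone and no measured value, although it was written with earlier results of these data known.

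Semaphorins are secreted or membrane-bound ligands that were first described as repellents of growing axons. The class 3 semaphorins are secreted and bind neuropilins, which have only a short intracellular part and pass the signal through plexins, whereas most membrane-bound semaphorins bind plexins directly. Plexins act on small GTPases and the cytoskeleton, and neuropilins also bind members of the VEGF family. Ephrins are tethered to the cell surface and bind Eph receptor tyrosine kinases on neighbouring cells, so that both cells can receive a signal. In connective tissue the same ligands and receptors take part in cell migration, in cell sorting and in guiding nerves and vessels.

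Ccd-18Co is an established fibroblast line from normal human colon, and it stands in the study for intestinal stroma exposed to the cytokines of Crohn's disease. All 11 groups were bulk RNA-seq of this 1 line after 72 h in serum-free medium and 24 h of culture with or without a cytokine, with 4 replicate libraries each (44 libraries). The groups were unstimulated cells and cells given TNF, IL-1β, IFNα, IFNγ, TGF-β1, IL-13, OSM (oncostatin M), IL-17A, IL-22 or IL-6, each at 10 ng/ml except IL-1β at 0.1 ng/ml by the labels. A figure legend of the study gives a lower dose for IL-1β. Since nothing says that the 4 replicates were independent cultures, p-values measure the spread between these libraries, which may be technical. The total count per library was between 742173 and 2213424 with a median of 1480882, so that 3 counts, taken here as the floor of measurement, corresponded to 1.39 to 3.85 CPM (counts scaled to a common library size after normalization). All 9 fibroblast markers examined, COL1A1, DCN and PDGFRB among them, had counts in all 44 libraries, with a summed level of 16733 to 52224 CPM. The 6 endothelial markers together reached at most 2.65 CPM. The 5 epithelial markers summed to 0 to 26.6 CPM, nearly all of it VIL1, with CLDN7 at 0, and the 4 smooth muscle markers to 4.15 to 33.9 CPM. The 6 leukocyte markers summed to 38 to 73.8 CPM after IFNα and to at most 20.6 CPM in the other groups, with most counts in CD68 and with CD3E at 0; the part of these counts in the results after IFNα was not tested.

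Counts were found for 45 of the 52 guidance genes (86.5%, against 58.4% of all symbols listed). The filter on low counts was passed by 12 members (23.1%, against 23.4% of all symbols), which could be tested: the semaphorins SEMA3A, SEMA3C, SEMA3D, SEMA5A and SEMA6D, both neuropilins, the plexin PLXNB2, the Eph receptors EPHA4, EPHA5 and EPHB2, and the ephrin EFNA1. The other 40 were not tested. Among these, 7 had a count of 0 in every library (EFNA2, EFNA3, EPHA6, SEMA3F, SEMA3G, SEMA4A and SEMA5B), 10 never exceeded 3 counts, 17 had a highest count of 4 to 10, and 6 exceeded 10 counts in at least 1 library. The filter keeps a gene that is high in a single group, so the 12 are not a sample of the 52.

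**Figure D1:**
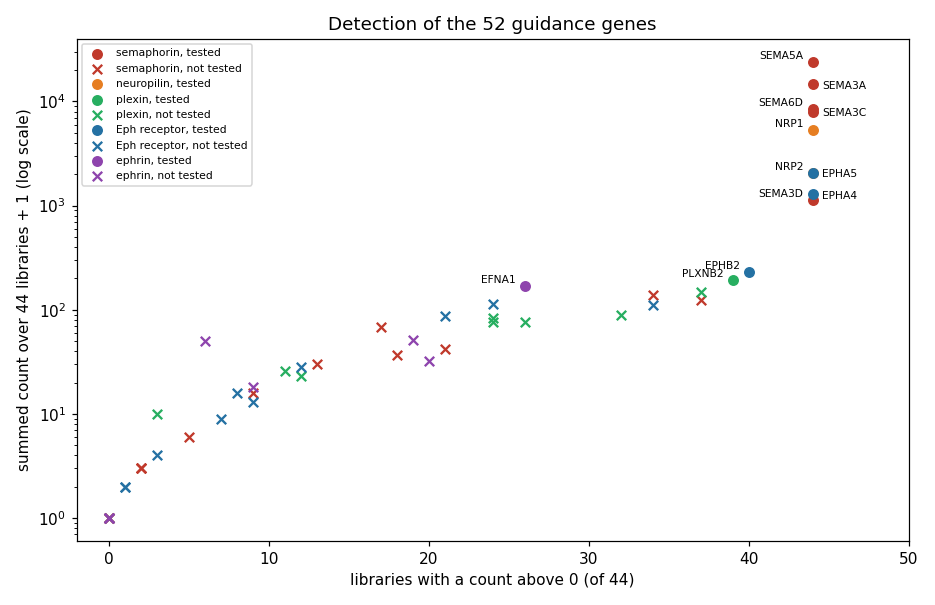
Detection of each of the 52 guidance genes. The x axis gives the number of libraries with a count above 0 of the 44, the y axis the count summed over the 44 libraries plus 1 (log scale), circles the 12 tested genes (labelled) and crosses the 40 genes not tested, in a colour for each family. The tested semaphorins, the neuropilins, EPHA4 and EPHA5 have counts in all 44 libraries, and the 9 plexins have summed counts of 9 to 191.

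In unstimulated cells, per kilobase of the Ensembl canonical transcript (GENCODE 44), the highest members were semaphorins. SEMA3A, a secreted ligand of NRP1, stood at 31.1 ± 7.94 CPM per kb (mean ± SD, n = 4), SEMA5A, a membrane-bound semaphorin with thrombospondin repeats, at 30.4 ± 8.29, and the secreted SEMA3C at 28.1 ± 2.63. SEMA6D, a membrane-bound ligand of class A plexins, was at 23.9 ± 5.89 CPM per kb. The ranges of these genes over the 4 libraries overlapped, and their order among themselves is not given by these data. The neuropilin NRP1 followed at 9.17 ± 3.26 CPM per kb, with a range of 4.49 to 12.0 that lay below that of SEMA6D (15.7 to 28.9). Then came the Eph receptor EPHA5 at 5.25 ± 2.1, EPHA4 at 3.85 ± 0.989, SEMA3D at 3.85 ± 1.07 and NRP2 at 3.15 ± 0.22 CPM per kb, whose ranges overlapped those of their neighbours except that the highest NRP2 library (3.39) lay below the lowest NRP1 library. These levels depend on the transcript length, since with the median length of a gene's transcripts EPHA4 (42.1) passed NRP1 (20.6). The remaining families were near or under the floor. By mean, the highest plexins were PLXNB2 at 0.415 ± 0.396, PLXNA3 at 0.306 ± 0.173 and PLXNB1 at 0.24 ± 0.0511 CPM per kb. The third highest Eph receptor was EPHA7 at 0.248 ± 0.304. The ephrins with the highest means were EFNA4 at 0.573 ± 0.663, EFNA1 at 0.345 ± 0.447 and EFNB1 at 0.0902 ± 0.107. All 3 of these ephrins were under the floor in unstimulated cells. The order of such low members within a family is not given by these data. Plexins, through which the class 3 semaphorins signal, had at most 12 counts in any library.

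**Figure D2:**
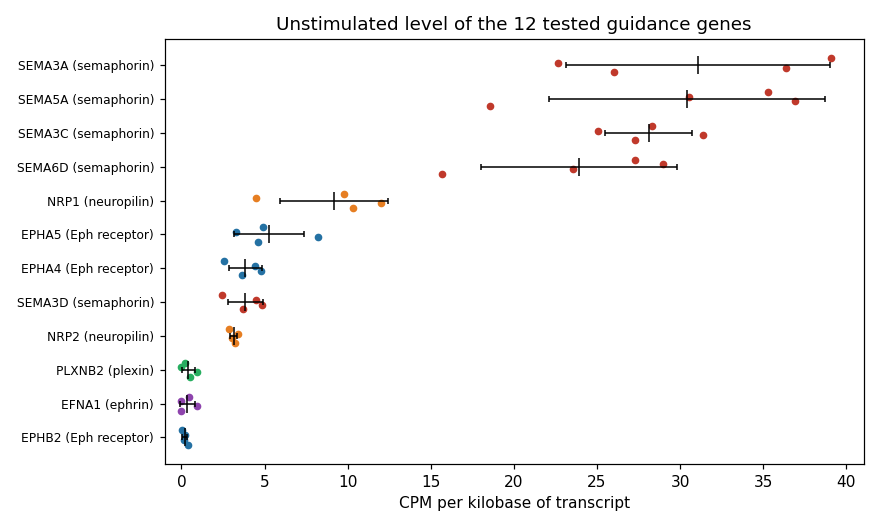
Level of the 12 tested guidance genes in the 4 unstimulated libraries. The x axis gives CPM per kilobase of the canonical transcript, each point is a library coloured by family, and the black mark and bar are the mean and SD. 4 semaphorins lie above 15 CPM per kb in every library, the neuropilins and EPHA4, EPHA5 and SEMA3D between 2 and 13, and PLXNB2, EFNA1 and EPHB2 below 1.

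The promoters of the tested members were looked up in RefSeq (GRCh38.p14), where 10 of the 12 matched with 16 entries of 300 bases, from 250 bases before to 50 after an annotated start. NRP1 and SEMA3A had no entry and were not searched. Motifs bound by factors downstream of these cytokines were searched on both strands: the STAT6 site, the interferon element ISRE and the NF-kB site, each given here by name. Among all 35116 promoters in the table, 6.44% held the STAT6 site, 3.57% ISRE and 5.91% the NF-kB site. In the 16 entries of the 10 members there was 1 match, an ISRE in EPHA4 (79 to 70 bases before the start at its outer entry). A match is a run of letters and not evidence of binding. The 250 bases before the start are shown, on the strand of the gene, for SEMA3C, called after the most cytokines below, for SEMA3D and NRP2, with the largest fall and rise among the calls, and for EPHA4, whose ISRE match is in capitals. The other 3 entries shown held no match. For SEMA3C the inner entry is shown, and its outer entry (chr7:80922340-80922639) held no match either.
SEMA3C, chr7:80919052-80919301: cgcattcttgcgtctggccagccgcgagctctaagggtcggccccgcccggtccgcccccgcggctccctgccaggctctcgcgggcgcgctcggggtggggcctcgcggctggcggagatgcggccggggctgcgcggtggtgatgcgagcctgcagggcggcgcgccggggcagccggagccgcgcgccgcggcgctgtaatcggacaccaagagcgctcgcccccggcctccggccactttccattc
SEMA3D, chr7:85187057-85187306: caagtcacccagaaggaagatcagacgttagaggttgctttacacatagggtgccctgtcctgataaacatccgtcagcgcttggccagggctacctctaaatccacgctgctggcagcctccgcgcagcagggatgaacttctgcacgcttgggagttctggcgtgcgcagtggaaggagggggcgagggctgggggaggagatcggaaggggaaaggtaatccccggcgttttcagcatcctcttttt
NRP2, chr2:205682251-205682500: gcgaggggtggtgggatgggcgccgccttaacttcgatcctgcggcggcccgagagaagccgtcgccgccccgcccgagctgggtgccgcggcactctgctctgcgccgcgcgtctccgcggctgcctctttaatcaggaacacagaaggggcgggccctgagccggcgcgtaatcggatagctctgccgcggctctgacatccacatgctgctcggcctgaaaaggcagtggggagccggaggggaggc
EPHA4, chr2:221574203-221574452: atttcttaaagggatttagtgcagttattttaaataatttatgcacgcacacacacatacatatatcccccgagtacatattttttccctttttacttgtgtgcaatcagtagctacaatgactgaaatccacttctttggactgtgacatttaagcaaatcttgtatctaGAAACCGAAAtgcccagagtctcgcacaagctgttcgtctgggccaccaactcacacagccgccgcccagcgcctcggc

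SEMA3C, SEMA3A and SEMA3D lie in the same orientation on the minus strand of chromosome 7 (GRCh38, chr7:80742538-80922359, chr7:83955777-84492724 and chr7:84995553-85187056). SEMA3A and SEMA3D are neighbours in this family, 503 kb apart. The other tested genes with changes below are on separate chromosomes or far apart: NRP1 at chr10:33177492-33336262, NRP2 at chr2:205681990-205798133, SEMA5A at chr5:9035033-9546075, SEMA6D at chr15:47184101-47774228 and EPHA5 at chr4:65319563-65670495. Exons of EPHA5 share 535 bases with its antisense gene EPHA5-AS1, which is listed with 291 counts in all against 2065 for EPHA5, and since the use of strand in counting is not given in the sources used here, reads of the pair may not be separable. Exons of NRP1 (561 bases), SEMA5A (436), EPHA4 (353) and NRP2 (147) also overlap opposite-strand genes. Those genes are not among the symbols listed, so their reads cannot be set beside these members.

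The first question was which guidance genes each cytokine changed. The estimated counts were fitted in 1 edgeR quasi-likelihood model, and a gene was called at a Benjamini-Hochberg adjusted p under 0.05 over all 9513 genes tested. Over the 10 cytokines there were 19 calls in 8 of the 12 members, where 27.4% of all genes tested were called after at least 1 cytokine. After 2 or more cytokines 7 of the 12 were called, against 14.2% of all genes. The inflammatory pair TNF and IL-1β raised neuropilins and SEMA3C, the interferons and OSM lowered SEMA3C, and OSM and IL-13 lowered SEMA3A. The SEMA3C call after TNF was lost in 6 of 8 fits that left out 1 library. In bulk RNA, fewer cells that express a gene and less of its RNA per cell cannot be told apart. A test for any difference among the 11 groups called 9 of the 12 members, against 35.7% of all genes tested. EFNA1, which rests on few counts, was among the 9 and was not called after any single cytokine.

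TNF upregulated 3 members (NRP1, NRP2 and SEMA3C), where 5.37% of all genes rose, and downregulated 1 (SEMA3D), where 6.09% of all genes fell. IL-1β upregulated 4 (NRP1, NRP2, SEMA3C and SEMA6D; all genes 3.46%) and downregulated 0 (all genes 3.92%). IFNα upregulated 0 (all genes 4.99%) and downregulated SEMA3C and SEMA5A (all genes 4.86%). IFNγ raised 1, NRP1 (all genes 5.52%), and lowered 3, namely SEMA3C, SEMA6D and EPHA5 (all genes 5.13%). TGF-β1 changed 1 member, with EPHA5 lower (all genes 3.08%) and 0 higher (all genes 2.61%). IL-13 likewise changed 1, with SEMA3A lower (all genes 2.4%) and 0 higher (all genes 1.53%). OSM lowered 3, SEMA3A, SEMA3C and SEMA3D (all genes 2.54%), and raised 0 (all genes 1.42%). Each of these comparisons used the same 4 unstimulated libraries.

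With the study's further condition of an absolute log2 fold change above 1.5, 5 of the 19 calls remained. These were NRP2 and SEMA3D after TNF (4.19% of all genes past both conditions), NRP1 after IL-1β (2.78%), EPHA5 after IFNγ (3.53%) and SEMA3D after OSM (1.3%). After IFNα (3.98%), TGF-β1 (1.7%) and IL-13 (1.47%) there were 0 members past both.

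IL-17A, IL-22 and IL-6 changed 0 members. For IL-17A, 0.599% of all genes rose and 0.925% fell, with 0.452% past the fold threshold as well. For IL-22 the share of all genes called was 0% under both rules, and for IL-6 it was 0.0105% under both. At an unadjusted p under 0.05, edgeR gave 1 of the 12 members after IL-17A, 3 after IL-22 and 0 after IL-6. Of all 9513 genes tested, 1195 passed that level after IL-17A, 1037 after IL-22 and 233 after IL-6. DESeq2 called 0 members after each, with no adjusted p for 4 members after IL-17A and 7 after IL-22. The gene past the unadjusted level after IL-17A was NRP2, at 13.4, 7.8, 15.2 and 9.19 CPM against 19.1 to 22.5 in unstimulated cells (log2 fold change -0.87 ± 0.32 (SE), edgeR adjusted p = 0.203).

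**Figure D3:**
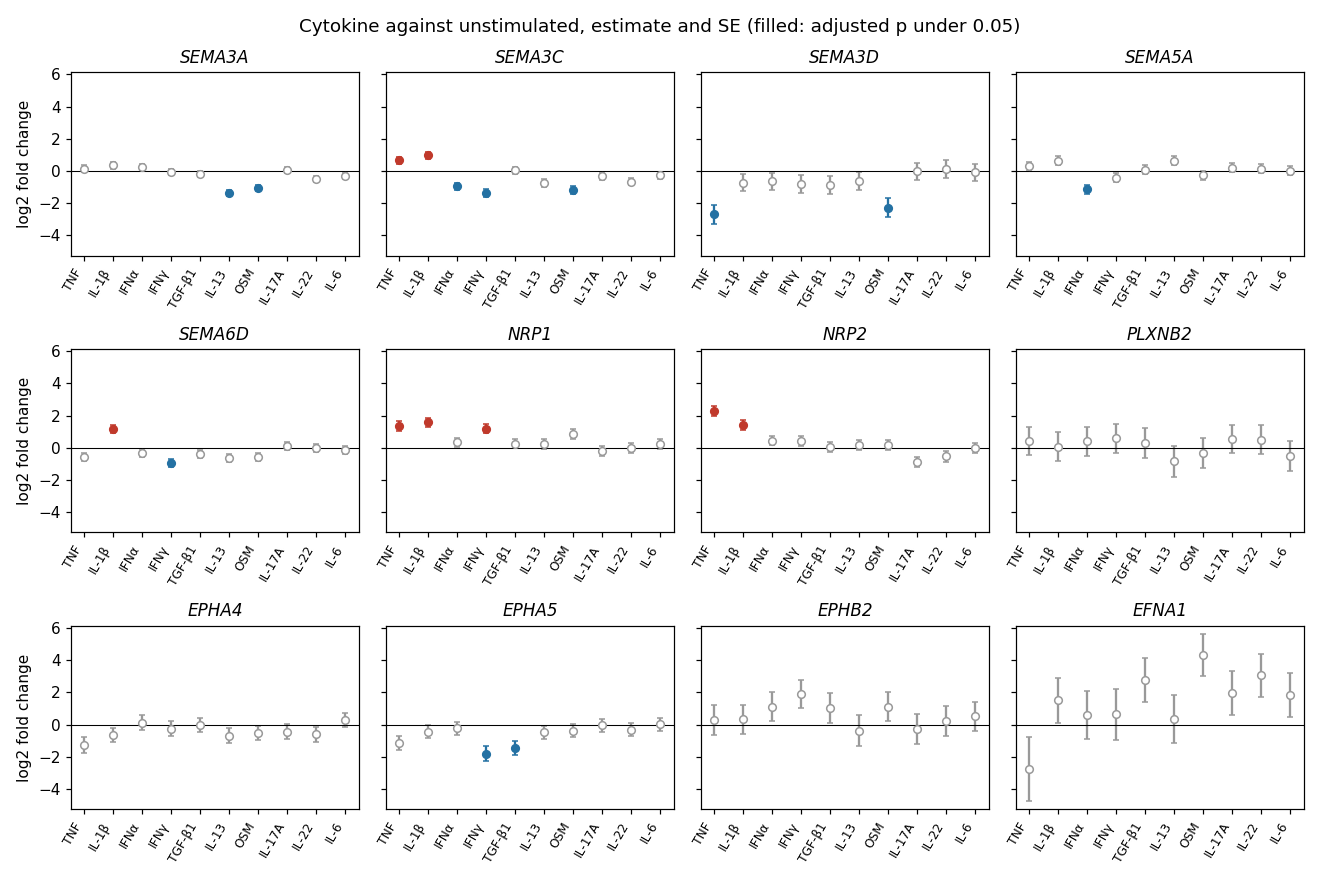
Log2 fold change of the 12 tested guidance genes after each cytokine against unstimulated cells. Points are edgeR estimates and bars 1 SE, all panels share the y axis, filled red points are called higher, filled blue points called lower, and open points were not called. The 19 calls fall in 8 genes, and the bars are widest for EFNA1, which rests on few counts.

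SEMA3C, a secreted semaphorin that binds both neuropilins, was called after 5 cytokines, in both directions. In the 4 unstimulated libraries it was at 133, 153, 122 and 138 CPM. After IL-1β it was at 316, 306, 212 and 224 CPM, above all unstimulated libraries (1.94-fold, log2 fold change 0.96 ± 0.22, edgeR adjusted p = 0.00294). TNF gave 174, 183, 209 and 294 CPM, also without overlap but by a smaller step (1.58-fold, log2 fold change 0.66 ± 0.22, adjusted p = 0.0463 by edgeR). The TNF call was lost in 6 of 8 fits that left out 1 library, with a log2 fold change of 0.49 without TNF replicate 4 (edgeR adjusted p = 0.204), and without the filter on low counts (adjusted p = 0.0634).

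The other 3 cytokines lowered SEMA3C. IFNγ gave the lowest levels, 51.2, 55.7, 38.1 and 64.1 CPM, a fall to below the unstimulated range (2.6-fold lower, log2 fold change -1.38 ± 0.24, edgeR adjusted p = 3.51e-05). IFNα gave 71.1, 94.8, 57.2 and 56.7 CPM (1.95-fold lower, -0.96 ± 0.23, adjusted p = 0.00273). OSM gave 42, 67, 70 and 61 CPM (2.27-fold lower, -1.19 ± 0.23, adjusted p = 7.57e-04). The 12 libraries of these groups all lay below the 4 unstimulated ones. After IL-13 SEMA3C was at 84.3, 112, 68.7 and 60.4 CPM, again below the unstimulated range, and this difference missed the threshold (log2 fold change -0.75 ± 0.23, edgeR adjusted p = 0.0522), which it passed in DESeq2 (0.0417), without the filter (0.0465) and without IL-13 replicate 2 (0.0338).

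SEMA3A, whose binding to NRP1 collapses growth cones, was lowered by 2 cytokines. The unstimulated libraries had 211, 295, 184 and 317 CPM. With IL-13 the 4 libraries were close together at 106, 86.5, 94.6 and 96.8 CPM, below every unstimulated one (2.62-fold lower, log2 fold change -1.39 ± 0.19, edgeR adjusted p = 2.6e-06). With OSM they were at 102, 144, 98.7 and 141 CPM, also below the unstimulated range (2.07-fold lower, -1.05 ± 0.19, adjusted p = 2.65e-04). Group means after the other 8 cytokines were between 174 CPM (IL-22) and 318 CPM (IL-1β), against 252 ± 64.4 CPM in unstimulated cells.

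SEMA3D, another secreted class 3 member, was the least abundant of the tested semaphorins and fell furthest. Its counts were 51, 45, 43 and 24 in the unstimulated libraries, or 25, 32.8, 30.3 and 16.4 CPM. After TNF the counts were 2, 16, 1 and 2 (1.41, 13.8, 0.75 and 1.07 CPM), with 3 libraries at or under the floor and replicate 2 apart from them, though still below the unstimulated range. The fall was 6.53-fold (log2 fold change -2.71 ± 0.62, edgeR adjusted p = 0.00194), a size that is uncertain with 3 TNF libraries under the floor. Without TNF replicate 2 the fitted value was -4.46, which is no bound, since only libraries under the floor were left after TNF. After OSM the counts were 1, 11, 9 and 10 (0.609, 6.52, 6 and 8.25 CPM), a 4.91-fold fall (-2.3 ± 0.59, adjusted p = 0.0161). The groups did not overlap, and the OSM call did not hold without OSM replicate 1, where the log2 fold change was -1.9 (edgeR adjusted p = 0.102). It was also lost, at -2.16 (adjusted p = 0.0515), once the second unstimulated library was left out.

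SEMA5A, which can both attract and repel axons, was lowered by IFNα. Unstimulated cells had 218, 434, 359 and 415 CPM, and IFNα gave 109, 163, 168 and 201 CPM. All 4 IFNα libraries were below the lowest unstimulated one, by a narrow margin for the closest pair (2.22-fold lower, log2 fold change -1.15 ± 0.29, edgeR adjusted p = 0.00428). After IFNγ it was at 260, 461, 206 and 124 CPM, a wide spread that overlapped the unstimulated libraries and was not called. Without IFNγ replicate 2 it was called lower (-0.83, edgeR adjusted p = 0.0386). After IL-1β SEMA5A was at 541, 730, 454 and 486 CPM, above all unstimulated libraries and not called (0.63 ± 0.28, edgeR adjusted p = 0.208). Without the filter edgeR called it higher after IL-1β (adjusted p = 0.0268) and after IL-13 (0.0498), which was not called in the main test (0.242).

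SEMA6D moved in opposite directions after IL-1β and IFNγ. The unstimulated libraries were at 92.5, 139, 171 and 161 CPM. IL-1β gave 258, 281, 338 and 370 CPM, above all of them (2.22-fold, log2 fold change 1.15 ± 0.26, edgeR adjusted p = 0.00168). IFNγ gave 77.6, 99.7, 70.2 and 47 CPM, where the highest library overlapped the lowest unstimulated one (1.91-fold lower, -0.93 ± 0.26, adjusted p = 0.0145). The IFNγ call was lost in 4 of 8 fits that left out 1 library (unstimulated replicates 3 and 4, IFNγ replicates 3 and 4, adjusted p from 0.0528 to 0.102) and in a fit of only the 8 libraries compared (0.0574).

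**Figure D4:**
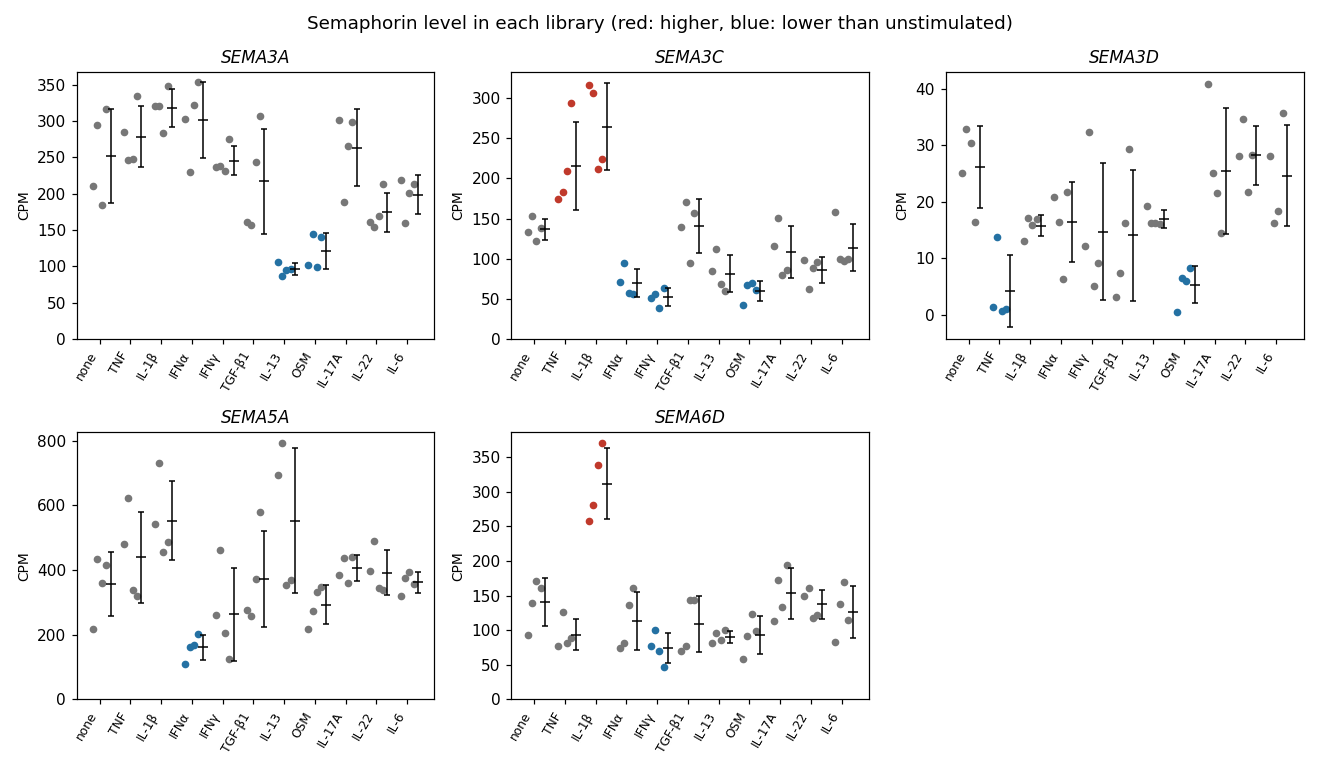
CPM of the 5 tested semaphorins in each of the 44 libraries. The x axis gives the groups ("none" is unstimulated) and the y axis CPM from 0; each point is a library, the black mark and bar beside the points are the mean and SD, and red or blue points mark groups called higher or lower than unstimulated by edgeR. SEMA3C libraries lie above the unstimulated range after TNF and IL-1β and below it after IFNα, IFNγ, OSM, IL-13 and IL-22, the differences after IL-13 and IL-22 not being called.

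Among the receptors, NRP1, which binds SEMA3A and VEGFA, rose after 3 cytokines. It was at 58.3, 67.8, 25.3 and 55.3 CPM in unstimulated cells. IL-1β gave 133, 205, 121 and 164 CPM, with every library above the unstimulated range (3.01-fold, log2 fold change 1.59 ± 0.29, edgeR adjusted p = 1.2e-04). TNF gave 94.6, 81, 172 and 179 CPM, also without overlap (2.55-fold, 1.35 ± 0.29, adjusted p = 8.74e-04). IFNγ gave 79.8, 64, 124 and 201 CPM, where replicate 2 fell within the unstimulated range (2.27-fold, 1.18 ± 0.29, adjusted p = 0.00446). Without IFNγ replicate 4, the highest library, the IFNγ difference was 0.8 and no longer called (edgeR adjusted p = 0.0862), nor was it in a fit of only the 8 libraries compared (adjusted p = 0.0881). After OSM NRP1 was at 98.7, 72.9, 103 and 101 CPM, above all unstimulated libraries and not called by edgeR (log2 fold change 0.86 ± 0.29, adjusted p = 0.0888). It was called by DESeq2 (adjusted p = 0.046) and by edgeR without the filter (0.0317).

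NRP2, a receptor of SEMA3C and SEMA3F that also binds VEGFC, rose after the inflammatory pair. Unstimulated libraries were tight, at 21.5, 20.4, 22.5 and 19.1 CPM. TNF gave 115, 72.3, 134 and 84.6 CPM (4.84-fold, log2 fold change 2.28 ± 0.3, edgeR adjusted p = 2.87e-07), the largest rise among the calls. IL-1β gave 50.5, 66.9, 57.2 and 51.9 CPM (2.7-fold, 1.43 ± 0.3, adjusted p = 7.82e-04). Every library of both groups was above the unstimulated ones, and both calls held in all 8 fits that left out 1 library.

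The 1 tested plexin, PLXNB2, a receptor of class 4 semaphorins, had 0 to 12 counts per library and was not called after any cytokine, with 0, 2, 7 and 8 counts in the unstimulated libraries. The SEs of its log2 fold changes were 0.89 to 0.98.

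EPHA5, an Eph receptor for the glycosylphosphatidylinositol-anchored ephrins, was lowered by 2 cytokines. It was at 38.2, 68.5, 27.4 and 41 CPM in unstimulated cells. IFNγ gave 16.6, 19.9, 11.3 and 2.14 CPM, below all of them (3.52-fold lower, log2 fold change -1.81 ± 0.45, edgeR adjusted p = 0.00438, and 0.0574 in a fit of only the 8 libraries compared). TGF-β1 gave 28.9, 12.8, 9.07 and 13.2 CPM, where replicate 1 overlapped the lowest unstimulated library (2.7-fold lower, -1.43 ± 0.44, adjusted p = 0.0397). The TGF-β1 call was lost in 5 of 8 fits that left out 1 library, with -1.13 (edgeR adjusted p = 0.198) without unstimulated replicate 2, which had the highest level, and in a fit of only the 8 libraries compared (adjusted p = 0.081). After TNF EPHA5 was at 22.6, 31, 9 and 16.1 CPM and was not called (-1.16 ± 0.42, adjusted p = 0.0678), though it was by DESeq2 (0.0497), without the filter (0.0277) and without TNF replicate 2 (-1.43, adjusted p = 0.0391).

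EPHA4, a receptor for both ephrin classes, was not called after any cytokine. Its unstimulated levels were 23, 30.6, 28.1 and 16.4 CPM. After TNF it was at 11.3, 7.75, 8.25 and 12.9 CPM, below every unstimulated library, with a log2 fold change of -1.27 ± 0.47 (edgeR adjusted p = 0.0769). EPHB2, a receptor for B-class ephrins, had at most 19 counts in a library and was not called either.

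EFNA1, the only tested ephrin, had 0, 2, 0 and 1 counts in the unstimulated libraries, under the floor of 3. After OSM the counts were 41, 17, 16 and 0. Replicate 4 of OSM, at 0, overlapped the unstimulated libraries, and the difference was not called (fitted log2 fold change 4.32 ± 1.32, which is no bound, edgeR adjusted p = 0.0534). It was called by edgeR without OSM replicate 4 (adjusted p = 0.0324) and without the filter on low counts (0.0108). The test for any difference among the 11 groups called EFNA1 (edgeR adjusted p = 0.00673). That test adds no separate support, since it uses the same high OSM libraries, which also helped EFNA1 to pass the filter. EFNA1 was also at 21 counts in 1 of 4 IL-22 libraries, with 0, 0 and 4 in the others, and at 0 in all 4 TNF libraries.

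**Figure D5:**
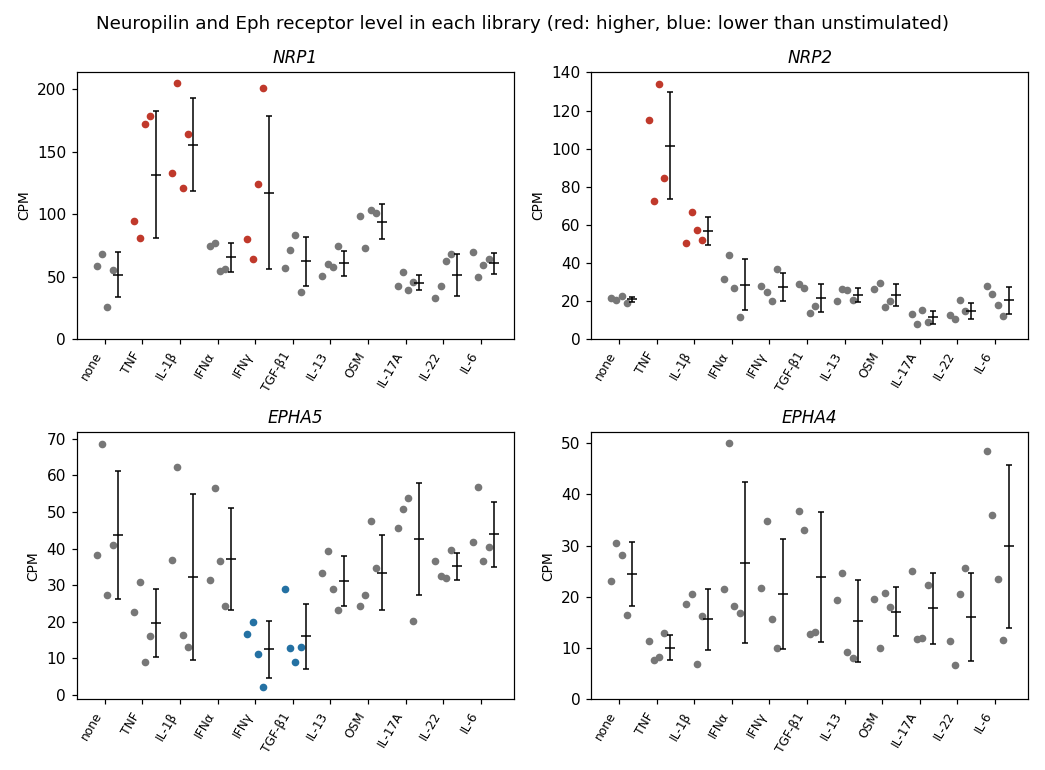
CPM of the 2 neuropilins, EPHA5 and EPHA4 in each of the 44 libraries. The x axis gives the groups ("none" is unstimulated) and the y axis CPM from 0; each point is a library, the black mark and bar beside the points are the mean and SD, and red or blue points mark groups called higher or lower than unstimulated by edgeR. NRP2 libraries lie between 72.3 and 134 CPM after TNF and between 50.5 and 66.9 after IL-1β, against 19.1 to 22.5 in unstimulated cells.

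Of the genes that were not tested, 3 are named here after their values were seen. SEMA4B, a membrane-bound semaphorin, had 0, 0, 2 and 0 counts in unstimulated cells, 4, 8, 10 and 4 after OSM, 10, 6, 1 and 6 after IFNα, and 0 in all 4 libraries after TNF, IL-13, IL-22 and IL-6. SEMA6A, a relative of SEMA6D, had 14, 6, 7 and 14 counts after IFNα and 7, 3, 0 and 4 in unstimulated cells. The OSM libraries were above the unstimulated ones for SEMA4B, and without the filter on low counts, edgeR called SEMA4B higher after OSM than after IL-6 (fitted log2 difference 5.68, which is no bound, adjusted p = 0.0375). After IFNα SEMA4B overlapped the unstimulated libraries. SEMA6A overlapped them in counts but not in CPM, at 7.71, 3.95, 5.56 and 8.72 after IFNα against at most 3.43. EFNA5, by contrast, had 25 counts in 1 OSM library and 13 in 1 TNF library, with 0 in the other 3 libraries of each group.

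Pairs of cytokines were then compared directly in the same model, since a call after 1 cytokine and none after another does not show that they differ. TNF and IL-1β differed in 1 member, SEMA6D, where 1.15% of all genes differed. SEMA6D was at 77.7, 126, 81 and 88.9 CPM after TNF, below all 4 IL-1β libraries given above (3.35-fold lower, log2 difference -1.74 ± 0.26, edgeR adjusted p = 5.58e-05). NRP2 was higher after TNF than after IL-1β in every library, but the difference was not called (0.84 ± 0.28, adjusted p = 0.152). SEMA3D was not called either (-1.98 ± 0.63, edgeR adjusted p = 0.124). Without TNF replicate 2 the fitted difference was -3.74, which is no bound because the TNF libraries left were under the floor, and it was called (edgeR adjusted p = 0.00298). With all libraries SEMA3D was called by DESeq2 (0.0421) and by edgeR without the filter (0.0171).

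IFNα and IFNγ differed in 1 member, EPHA5, where 9.39% of all genes differed. EPHA5 was at 31.4, 56.6, 36.5 and 24.3 CPM after IFNα, above the IFNγ libraries (2.99-fold, log2 difference 1.58 ± 0.45, edgeR adjusted p = 0.0162). Leaving out IFNα replicate 2 gave 1.3 and ended this call (edgeR adjusted p = 0.0872), as did leaving out IFNγ replicate 3 (1.53, adjusted p = 0.052) or IFNγ replicate 4 (1.21, adjusted p = 0.0921), and so did a fit of only the 8 libraries compared (adjusted p = 0.0866). NRP1, lower after IFNα, missed the threshold (-0.84 ± 0.29, edgeR adjusted p = 0.056), which it passed with DESeq2 (0.0311), with its size factors (0.0485), without the filter (0.02) and without IFNγ replicate 1 (0.0293) or 2 (0.0129).

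OSM and IL-6, 2 cytokines that signal through receptors sharing the gp130 subunit, differed in 3 tested members, all secreted class 3 semaphorins and all lower after OSM, where 2.67% of all genes differed in either direction. After IL-6 SEMA3D was at 28, 16.3, 18.4 and 35.6 CPM, above the OSM libraries (log2 difference -2.21 ± 0.59, edgeR adjusted p = 0.0267). SEMA3C was at 158, 100, 97.5 and 100 CPM after IL-6 (-0.93 ± 0.23, adjusted p = 0.0151), and SEMA3A at 219, 160, 201 and 214 CPM (-0.71 ± 0.19, adjusted p = 0.027). None of the 3 genes overlapped between the groups. Leaving out OSM replicate 1 removed all 3 calls (edgeR adjusted p from 0.125 to 0.157), as did leaving out IL-6 replicate 1 (0.0611 to 0.138), and the SEMA3A and SEMA3D calls were each lost in 5 of 8 such fits.

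IL-13 and TGF-β1 differed in SEMA3A and SEMA3C, where 12.4% of all genes differed. SEMA3A was at 161, 157, 243 and 307 CPM after TGF-β1, above all IL-13 libraries (log2 difference IL-13 minus TGF-β1 -1.18 ± 0.19, edgeR adjusted p = 1.75e-05). SEMA3C was at 140, 171, 94.4 and 157 CPM after TGF-β1, with replicate 3 inside the IL-13 range (-0.79 ± 0.23, adjusted p = 0.0169), and this call was lost without TGF-β1 replicate 2, IL-13 replicate 3 or IL-13 replicate 4 (adjusted p from 0.0637 to 0.0798).

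TNF and TGF-β1 differed in both neuropilins, where 6.22% of all genes differed. NRP2 was at 28.9, 26.6, 13.6 and 17.6 CPM after TGF-β1, far below every TNF library (4.68-fold higher after TNF, log2 difference 2.23 ± 0.31, edgeR adjusted p = 7.52e-07). NRP1 was at 56.9, 71.3, 83.5 and 37.4 CPM after TGF-β1 and overlapped the lowest TNF library (2.13-fold, 1.09 ± 0.29, adjusted p = 0.0127). The NRP1 call was lost without TNF replicate 3, TNF replicate 4 or TGF-β1 replicate 4 (edgeR adjusted p from 0.0644 to 0.0846) and in a fit of only the 8 libraries compared (0.0601). SEMA3D was lower after TNF and not called (log2 difference -1.84 ± 0.64, edgeR adjusted p = 0.0808). Without TNF replicate 2 the fitted difference was -3.61 (edgeR adjusted p = 0.000757), again no bound with the TNF libraries left under the floor. Without TGF-β1 replicate 1 it was -2.17 (0.0346). With all libraries DESeq2 called SEMA3D (0.0332), as did edgeR without the filter (0.0225). EFNA1, with 0 counts in all TNF libraries, was called by DESeq2 (0.0352) and without the filter (0.0146) but not in the main test (edgeR adjusted p = 0.0643).

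Partners of semaphorin and ephrin signalling were examined as lists. Of 40 semaphorin partners (intracellular transducers, co-receptors such as MET and integrins, and VEGF ligands and receptors), 22 were tested. TNF raised 1 (RAC1, a GTPase of the cytoskeleton, log2 fold change 0.74 ± 0.16) and lowered 3, the collagen-binding integrin ITGA1 (-1.42 ± 0.2), the collapsin response mediator DPYSL2 (-1.23 ± 0.14) and the exchange factor FARP1 (-0.7 ± 0.22), with a list median of -0.18 against -0.02 over all genes. IL-1β lowered 4 and raised 0 (median -0.34 against -0.01), among them MICAL2, an actin oxidase, at 2.33 ± 1.6 CPM against 10.1 ± 4.13 (SD), and the HGF receptor MET at 9.18 ± 4.55 against 33.2 ± 17.1 CPM. The MICAL2 mean after IL-1β was close to the floor of those libraries (1.51 to 1.99 CPM), so the size of its fall is uncertain. IFNγ raised VEGFC, which binds NRP2, (16.4 ± 5.76 to 78.4 ± 20.4 CPM) and lowered 5 (median -0.18 against -0.01). The share of the list called in either direction was 18.2% after TNF (11.5% of all genes), 18.2% after IL-1β (7.38%) and 27.3% after IFNγ (10.6%). The remaining counts were 0 raised and 2 lowered after IFNα, 2 and 1 after TGF-β1, 0 and 1 after IL-13, 1 and 1 after OSM, 0 and 2 after IL-17A, and 0 and 0 after IL-22 and IL-6. As a share these were 9.09% after IFNα (9.85% of all genes), 13.6% after TGF-β1 (5.69%), 4.55% after IL-13 (3.93%), 9.09% after OSM (3.96%) and 9.09% after IL-17A (1.52%).

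DPYSL2, which links SEMA3A signals to microtubules, was called lower after TNF, IL-1β, IFNα, IFNγ and TGF-β1, from 985 ± 130 CPM in unstimulated cells to 421 ± 32.1 after TNF and 444 ± 49.5 after TGF-β1. MET was called lower after IL-1β, IFNγ, OSM and IL-17A, each against the same unstimulated libraries, which spread widely (33.2 ± 17.1 CPM). The edgeR adjusted p was 0.0228 after IL-1β, 0.0342 after IFNγ and 0.0402 after IL-17A. Genes of these lists were not refitted with a library left out.

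Of 24 ephrin transducers 14 were tested, and the calls were 2 raised and 1 lowered after TNF, 1 and 1 after IL-1β and IFNα, 0 and 1 after IFNγ and IL-13, 1 and 0 after TGF-β1, and 0 and 0 after each of the other 4 cytokines. The list share called was 21.4% after TNF, 14.3% after IL-1β and IFNα, and 7.14% after IFNγ, TGF-β1 and IL-13, beside the shares of all genes given above. Each of the last 3 is a single gene. The list medians lay between -0.24 (OSM) and 0.03 (IL-1β), against -0.05 to 0 over all genes. CHN1, a Rac-inactivating protein downstream of EPHA4, was called after 4 cytokines in both directions. It stood at 44.9 ± 12 CPM in unstimulated cells, rose to 141 ± 30.7 after IFNα and 133 ± 23 after TGF-β1, and fell to 15.7 ± 14.5 after IL-1β and 17.1 ± 4.69 after IL-13. PTPN13, a phosphatase that binds B-class ephrins, fell after TNF (-1.29 ± 0.32), while ABL2 rose (0.88 ± 0.28).

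Of 25 genes of the other guidance families (slits, netrins, their receptors, RGM and FLRT proteins) 8 were tested. The calls were 1 raised and 0 lowered after TNF, IL-1β and IL-13, 1 and 1 after IFNα, 0 and 1 after IFNγ and IL-17A, 0 and 2 after TGF-β1 and OSM, and 0 and 0 after IL-22 and IL-6. With 8 genes tested, 1 call is 12.5% of the list, close to the share of all genes after TNF (11.5%) and IFNγ (10.6%). It was above that share after IL-1β (7.38%), IL-13 (3.93%) and IL-17A (1.52%). The share of the list was 25% after IFNα (all genes 9.85%), TGF-β1 (5.69%) and OSM (3.96%). The list medians lay between -1.09 (IFNγ) and 0.05 (IL-22), against -0.05 to 0 over all genes. SLIT2, a secreted ligand of the ROBO receptors, had the widest span, with 917 ± 307 CPM in unstimulated cells, 3952 ± 1108 after IL-13, 343 ± 86.7 after OSM and 189 ± 90.3 after TGF-β1, all 3 called. Its receptor ROBO1 rose after TNF (282 ± 129 to 661 ± 320 CPM) and IL-1β (697 ± 206 CPM). NTN4, a netrin, fell after TGF-β1 (27.8 ± 13.6 to 2.96 ± 4.93 CPM). That TGF-β1 mean lay at the floor of those libraries (2.2 to 3.19 CPM), so the size of the fall is uncertain. FLRT3 rose (log2 fold change 1.27 ± 0.42) and FLRT2 fell (-0.98 ± 0.3) after IFNα, and FLRT2 also fell after IFNγ (-1.43 ± 0.31). RGMB, a co-receptor of bone morphogenetic proteins that binds neogenin, fell after OSM (-0.79 ± 0.23) and after IL-17A (-1.02 ± 0.23).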

How the data were processed

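Per the labels and the study's methods, total RNA of Ccd-18Co cells was sequenced on an Illumina NovaSeq6000. Read quality was examined by the authors in FastQC 0.11.9 and MultiQC 1.14. The authors ran kallisto 0.48.0 and deposited estimated counts per gene symbol, 1 column per library, without scaling for depth (5.77% of values are not whole). The submitters' notes name hg38. The transcriptome release, how transcripts were joined into symbols, and the use of strand are not given in the sources used here. kallisto divides reads shared by related transcripts among them, and the study states that outlying samples may have been excluded from its analysis.

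The deposited estimated counts were rounded to whole numbers, and genes were kept by filterByExpr with the 11 groups (9513 of 40663 symbols; 16928 symbols had no count anywhere). Normalization was by the trimmed mean of M values (TMM). Then edgeR (4.0.16, in R 4.3.3) fitted all 44 libraries with glmQLFit and glmQLFTest, 1 coefficient per group (common biological coefficient of variation 0.331). P-values were two-sided and adjusted by the Benjamini-Hochberg method over all genes within a comparison. Errors of fold changes are SEs. Where all libraries of a group had at most 3 counts, a gene was taken as under the floor. This floor covers counting error alone, because the reads carry no molecular identifiers. The code was tested on simulated counts. Within groups, no pair of replicates was identical (0 of 66), and the lowest chi-square per degree of freedom between replicates was 3.26.

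The members and lists were chosen with earlier results of these data known. Given with the value in every library were the members called after a cytokine (up to 6) or in a direct comparison (up to 4), and in the baseline the 3 highest members of each family per kilobase. Related lists were given as counts, with up to 4 called genes of largest fold change and the calls of those genes after other cytokines. Some genes near the threshold were named after their values were seen. Lengths and coordinates came from GENCODE 44 (GRCh38) and promoters from RefSeq (GRCh38.p14).

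Alternatives tried were DESeq2 size factors, the DESeq2 Wald test (version 1.42.0), other filters, only the 8 libraries compared, the replicate number as a block, a fold threshold, each library left out in turn and median transcript lengths. A few items are not reported here.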

Additional observations from a re-analysis of the deposited data

Results flagged for a closer look

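Within a group of 4, a library was singled out where its gap to the nearest other library, divided by the whole range of the group, exceeded Dixon's 95% critical value. Of 48 groups of values examined, 4 met this, where chance gives about 2.4. The total count of IL-1β replicate 1 was 2095807, against 1620541 to 1660473 in the other 3, and that of IL-6 replicate 2 was 1486860, against 1612043 to 1627960. SEMA3C was at 158 CPM in IL-6 replicate 1, against 97.5 to 100 in the others of that group, so that the log2 difference between OSM and IL-6 was -0.93 with it and -0.71 without it. SEMA3D was at 13.8 CPM in TNF replicate 2, against 0.75 to 1.41 in the other TNF libraries, and the log2 fold change of SEMA3D after TNF was -2.71 with it and -4.46 without it. The value of -4.46 is no bound, since the other TNF libraries were under the floor.

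The 2 cytokines of a pair differed by the test of the difference itself in these members, all given as log2 differences. TNF minus IL-1β was -1.74 for SEMA6D. IFNα minus IFNγ was 1.58 for EPHA5. OSM minus IL-6 was -2.21 for SEMA3D, -0.93 for SEMA3C and -0.71 for SEMA3A. IL-13 minus TGF-β1 was -1.18 for SEMA3A and -0.79 for SEMA3C. TNF minus TGF-β1 was 2.23 for NRP2 and 1.09 for NRP1.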

How the results depend on the processing

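No call of a member changed direction under any alternative. Of 28 calls in the 15 comparisons, each under 6 alternatives and 8 fits with 1 library left out, 346 refits kept the call and 46 lost it. Counts of called members are listed where they fell to 0 or changed by over 1.5 times. Smaller changes are left out, such as 5 after TNF and 4 after OSM by the DESeq2 Wald test. Apart from the 1.5 threshold, shares of all genes called in these and the later refits are not given. Such counts do not show whether the members or all genes moved. Under an absolute log2 fold change above 1.5 the count of members called was 2 after TNF, 1 after IL-1β, 0 after IFNα, 1 after IFNγ, 0 after TGF-β1, 0 after IL-13 and 1 after OSM, and above 1 it was 1 after IFNα. With only the 8 libraries compared it was 1 after IFNγ, 0 after TGF-β1, 0 for IFNα against IFNγ and 1 for TNF against TGF-β1. The DESeq2 Wald test gave 2 after IL-13, 2 for TNF against IL-1β, 2 for IFNα against IFNγ and 4 for TNF against TGF-β1. The fits without the filter covered all 45 members with a count. They gave 3 after IL-13, 5 after OSM, 2 for TNF against IL-1β, 3 for IFNα against IFNγ and 4 for TNF against TGF-β1. DESeq2 size factors gave 2 for IFNα against IFNγ. The causes of these changes were not tested. Over the 6 alternatives adjusted p ran from 0.000142 to 0.0881 for NRP1 after IFNγ, from 8.25e-05 to 0.0574 for EPHA5 after IFNγ, from 0.00175 to 0.0574 for SEMA6D after IFNγ, from 0.00624 to 0.081 for EPHA5 after TGF-β1 and from 0.000323 to 0.0173 for SEMA3D after OSM.

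Correlations of same-numbered deviations were -0.13 to 0.28, and in 0 of 15 comparisons did every pair exceed 0.1. Differently numbered libraries were not set beside them, so these values do not settle whether the replicate numbers pair the samples. With the replicate block 2 members were called after IL-13, SEMA3C (-0.76, edgeR adjusted p = 0.0301) being added, and EPHA5 was added after TNF (-1.17, adjusted p = 0.0306). No other count of calls moved by over 1.5 times under the block.

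Leaving out each library in turn gave 3 to 5 called members after TNF, 4 to 4 after IL-1β, 2 to 2 after IFNα, 2 to 5 after IFNγ, 0 to 1 after TGF-β1, 1 to 2 after IL-13, 2 to 4 after OSM and 0 to 0 after IL-17A, IL-22 and IL-6. For direct comparisons the range was 1 to 2 for TNF against IL-1β, 0 to 2 for IFNα against IFNγ, 0 to 3 for OSM against IL-6, 1 to 3 for IL-13 against TGF-β1 and 1 to 3 for TNF against TGF-β1. Members that varied over the 11 groups were 8 to 9. Without the filter the count was 12, out of the 45 members with a count and not out of the 12 tested genes. The share of all genes in that fit is not given here.

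Levels per kilobase depend on the transcript length used. With the median length of a gene's transcripts they were 444 for SEMA3A, 382 for SEMA5A, 235 for SEMA3C, 60.8 for SEMA6D, 42.1 for EPHA4, 20.6 for NRP1, 19.5 for NRP2, 16.8 for SEMA3D, 6.52 for EPHA5, 2.1 for PLXNB2, 0.587 for EPHB2 and 0.415 for EFNA1, so that EPHA4 came above both neuropilins. Counts of the plexins, the ephrins and most Eph receptors lay near or under the floor at this depth. Whether depth or low expression lies behind this was not tested.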
